A study of Mus musculus with 6 samples.

Results

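The genes described are the aminoacyl-tRNA synthetases of mouse liver, 20 that encode cytosolic enzymes and 16 that encode mitochondrial enzymes, taken from the table by gene symbol. All 36 were found among the 15960 genes of the table. Liver RNA was sequenced from C57BL/6 mice in 6 libraries, 3 from Cyp2e1-/- (knockout) and 3 from Cyp2e1+/+ (wild type) animals, all aged 22 weeks and all after 14 weeks of high-fat diet. The labels do not say how the deletion was made, what sex the animals were or whether a library stands for a single mouse, so p-values measure the spread between these libraries. The comparison asks how the liver transcriptome differs when Cyp2e1, which encodes a cytochrome P450 of hepatocytes, is targeted.

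An aminoacyl-tRNA synthetase joins an amino acid to its matching tRNA, the step that gives the ribosome its building blocks. Cytosol and mitochondria mostly use separate enzymes from separate genes, and the mitochondrial ones, whose symbols here end in 2, are also made in the cytosol and imported. Gars and Kars serve both compartments through alternative products of the same gene. Several cytosolic enzymes sit together in the multisynthetase complex, and many cytosolic genes are transcribed by ATF4, the factor that answers amino acid shortage and other stresses that act through eIF2.

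None of the 35 synthetase genes that could be tested rose or fell in Cyp2e1-/- (limma on log2(FPKM + 1), Benjamini-Hochberg adjusted p, threshold 0.05; smallest adjusted p = 0.25, for Cars). Over all 9968 tested genes 0.762% passed, 0.472% as higher and 0.291% as lower in Cyp2e1-/-. At an unadjusted p under 0.05 there were 5 members, Cars, Farsb, Yars, Rars and Cars2, all lower in Cyp2e1-/-. At that level stood 9.93% of all tested genes, and 5.89% stood there as lower. FPKM values allow for the length of a transcript, so levels can be compared between genes. Each difference is the mean log2(FPKM + 1) of the knockout less that of wild type, a scale on which the changes of weakly expressed genes come out too small. The 95% confidence intervals of all 35 differences lay between -0.84 (the lower bound for Cars) and 0.58 (the upper bound for Vars and for Pars2), inside 1 in either direction on that scale. Of these intervals 30 spanned 0 and 5 lay below it.

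Most cytosolic genes had a negative difference, and the mitochondrial genes were split. Of 20 cytosolic members 16 had a negative difference (median -0.09), and of 15 tested mitochondrial members 7 did (median 0.01), while 55.8% of all tested genes were negative (median -0.03). The split of the mitochondrial genes depended on wild type replicate 2. Without that library 11 of 15 mitochondrial members were negative (median -0.055), beside 15 of 20 cytosolic members (median -0.069). The difference between the 2 groups of genes was not tested. In 6 cytosolic members (Cars, Dars, Farsb, Gars, Sars and Yars) every knockout library lay below every wild type library. The same held in 3 of the 15 tested mitochondrial members (Cars2, Tars2 and Wars2). Of all tested genes 10.0% showed that pattern. In no member of either group did every knockout library lie above, a pattern seen in 5.32% of all tested genes. With quantile normalization the cytosolic count of negative differences was 11 of 20, and the median -0.05, with Eprs, Hars, Kars, Qars and Tars turning to small positive values. The count was 12 of 20 with sample weights (median -0.08). Without replicate 1 of both genotypes 12 of 20 were negative as well (median -0.06).

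**Figure D1:**
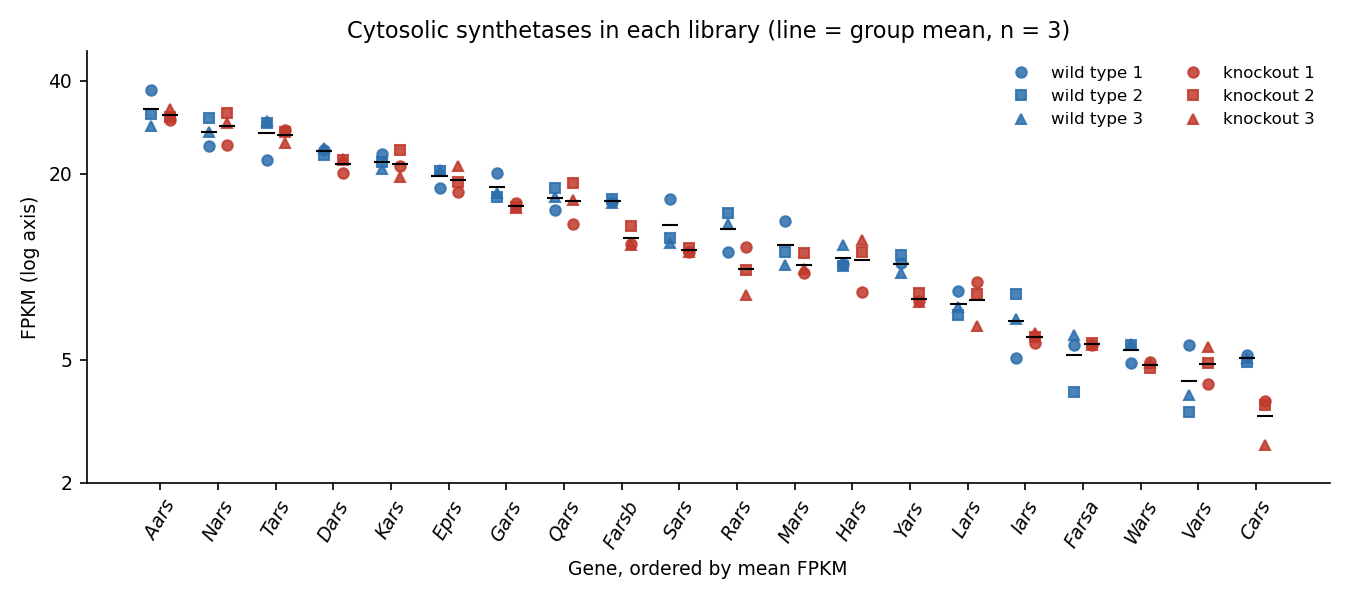
FPKM of the 20 cytosolic synthetase genes in each library on a log axis, ordered by mean level, with wild type in blue, knockout in red and a line at each group mean (n = 3 per genotype). Genotypes overlap for most genes, and at Cars, Dars, Farsb, Gars, Sars and Yars the red points all lie below the blue ones.

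Cytosolic synthetases were expressed at 4.18 to 31.7 FPKM (median of gene means 12.01), against a median of 6.28 FPKM over all tested genes and 4.16 over the mitochondrial synthetases. Aars, the alanine enzyme (gene 234734, chromosome 8, 111027778 to 111055569, GRCm38), was the most abundant. It held 29.9, 30.6 and 32.5 FPKM in Cyp2e1-/- libraries 1 to 3 and 37.3, 31.2 and 28.5 in Cyp2e1+/+. Its libraries overlapped, and wild type replicate 1 was the highest. Aars shares 1326 exon bases with Exosc6 on the same strand in the GENCODE annotation, and no label says how reads there were assigned. Nars, the asparagine enzyme, came next, with 24.8, 31.4 and 29.2 FPKM in Cyp2e1-/- and 24.6, 30.4 and 27.2 in Cyp2e1+/+. In both genotypes replicate 1 of Nars was the lowest, and its difference was 0.05 (95% confidence interval -0.25 to 0.36).

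Cars, which charges tRNA with cysteine (gene 27267, chromosome 7, 143557230 to 143600090), showed the largest difference of any member. Its level was 3.69, 3.57 and 2.65 FPKM in Cyp2e1-/- against 5.20, 4.92 and 5.06 in Cyp2e1+/+. The genotypes did not overlap, and the knockout mean was 0.653 of the wild type mean. The difference was -0.50 (SE 0.15, 95% confidence interval -0.84 to -0.16) and did not pass (limma, adjusted p = 0.25). Its mitochondrial counterpart Cars2 (gene 71941, chromosome 8, 11514017 to 11550781) held 3.95, 4.66 and 5.16 FPKM in Cyp2e1-/- and 6.81, 6.50 and 5.49 in Cyp2e1+/+. Cars2 did not overlap between genotypes either, with a difference of -0.38 (SE 0.15; limma, adjusted p = 0.43). It shares 422 exon bases with Naxd on the opposite strand in the GENCODE annotation, and no label says whether reads were counted by strand. The ratio of Cars to Cars2 was 0.738 ± 0.21 in Cyp2e1-/- and 0.814 ± 0.093 in Cyp2e1+/+ (SD, n = 3 each; exact permutation test on log2 ratios, two-sided p = 0.90).

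Phenylalanyl-tRNA synthetase of the cytosol is built from an alpha subunit, encoded by Farsa, and a beta subunit, encoded by Farsb. Farsb (gene 23874, chromosome 1, 78417958 to 78488897) stood at 11.8, 13.5 and 11.8 FPKM in Cyp2e1-/- and 16.2, 16.6 and 16.1 in Cyp2e1+/+. The wild type libraries differed by little, and all knockout libraries lay under them. The difference was -0.37 (SE 0.12, 95% confidence interval -0.65 to -0.10) and did not pass (limma, adjusted p = 0.31). Farsa (gene 66590, chromosome 8, 84856969 to 84869257) held 5.58, 5.69 and 5.60 FPKM in Cyp2e1-/- and 5.57, 3.95 and 6.04 in Cyp2e1+/+, where replicate 2 was low. The ratio of Farsb to Farsa was therefore 2.12, 2.38 and 2.11 in Cyp2e1-/- against 2.91, 4.21 and 2.66 in Cyp2e1+/+. These ratios did not overlap, and the exact permutation test gave p = 0.10 (two-sided), the smallest that 3 against 3 allows. It was 1 of 18 ratios compared, and its Benjamini-Hochberg adjusted p was 0.45. Farsb shares 248 exon bases with Sgpp2 on the opposite strand in the GENCODE annotation, and no label says whether reads were counted by strand.

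**Figure D2:**
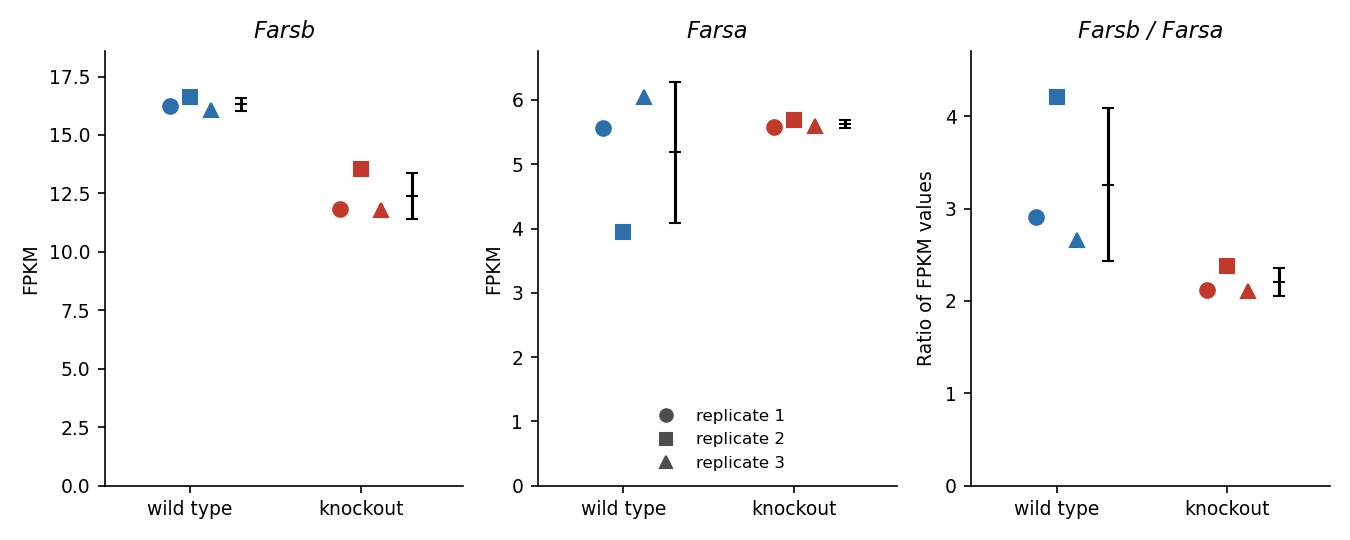
FPKM of Farsb and Farsa and the ratio of their FPKM in each library, by genotype, with the mean ± SD (n = 3) beside the points. Farsb and the ratio do not overlap between genotypes, while Farsa does, its low wild type point being replicate 2 at 3.95 FPKM.

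Yars, the tyrosine enzyme (gene 107271, chromosome 4, 129189734 to 129219240), held 7.75, 8.24 and 7.70 FPKM in Cyp2e1-/- against 10.3, 10.9 and 9.54 in Cyp2e1+/+. No knockout library reached the lowest wild type library. The difference was -0.33 (SE 0.13; limma, adjusted p = 0.40). Gars, the glycine enzyme (gene 353172, chromosome 6, 55038001 to 55079504), stood at 16.03, 15.6 and 15.5 FPKM in Cyp2e1-/- and 20.1, 16.8 and 17.3 in Cyp2e1+/+. Sars, the serine enzyme (gene 20226, chromosome 3, 108424864 to 108445259), stood at 11.2, 11.5 and 11.2 against 16.6, 12.4 and 11.9. In both of these genes the knockout libraries were close together and wild type replicate 1 was the highest library. Their differences were -0.19 (Gars) and -0.24 (Sars), with confidence intervals that included 0.

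Among the other enzymes that work outside the complex, Tars (threonine) stood at 26.7 ± 1.35 FPKM in Cyp2e1-/- and 27.1 ± 4.23 in Cyp2e1+/+, and Hars (histidine) at 10.6 ± 2.05 and 10.7 ± 0.95. Wars (tryptophan) stood at 4.83 ± 0.11 FPKM in Cyp2e1-/- and 5.38 ± 0.41 in Cyp2e1+/+. Vars (valine) had the highest positive difference of the cytosolic genes, 0.17 (95% confidence interval -0.24 to 0.58), at 4.87 ± 0.67 against 4.27 ± 1.17 FPKM. Of these 12 free enzymes 9 had a negative difference (median -0.09), and 5 of the 6 cytosolic genes without overlap were among them.

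The 8 synthetases of the multisynthetase complex had a median difference of -0.09, with 7 of 8 negative. Rars, the arginine enzyme (gene 104458, chromosome 11, 35808381 to 35834528), differed most. It held 11.6, 9.74 and 8.13 FPKM in Cyp2e1-/- and 11.2, 14.9 and 13.8 in Cyp2e1+/+. Replicate 1 of the genotypes was alike and the other libraries were apart, so the groups overlapped. The difference was -0.40 (SE 0.16; limma, adjusted p = 0.45). Without replicate 1 of both genotypes it was -0.63 and Rars passed (limma, adjusted p = 0.014), in a fit of 4 libraries in which 4.95% of all tested genes passed as lower and 6.92% as higher (11.9% in all). With sample weights Rars and Cars passed (limma, adjusted p = 0.016 and 0.035), as did 5.56% of all tested genes in that direction. Over the other alternatives the adjusted p of Rars was 0.16 to 0.95 (limma).

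Dars, the aspartate enzyme of the complex (gene 226414, chromosome 1, 128363707 to 128417416), held 20.2, 22.2 and 22.4 FPKM in Cyp2e1-/- and 23.9, 22.95 and 24.3 in Cyp2e1+/+. The groups did not overlap, but the gap was small, and the difference was -0.13 (95% confidence interval -0.39 to 0.13). Eprs, whose product carries both the glutamate and the proline enzyme, stood at 19.2 ± 1.86 FPKM in Cyp2e1-/- and 19.7 ± 1.42 in Cyp2e1+/+. Kars (lysine) stood at 21.5 ± 2.22 and 21.9 ± 1.23 FPKM, and Qars (glutamine) at 16.3 ± 2.48 and 16.7 ± 1.36. Mars (methionine) stood at 10.2 ± 0.82 FPKM in Cyp2e1-/- and 11.8 ± 2.08 in Cyp2e1+/+, Iars (isoleucine) at 5.91 ± 0.24 and 6.68 ± 1.53, and Lars (leucine) at 7.84 ± 1.29 and 7.59 ± 0.71. For these 6 genes the genotypes overlapped and the confidence intervals included 0.

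The nonenzymatic scaffolds of the complex are encoded by Aimp1, Aimp2 and Eef1e1. Aimp1 held 26.8, 23.1 and 20.1 FPKM in Cyp2e1-/- and 33.5, 28.1 and 28.9 in Cyp2e1+/+. Aimp2, named after its values were seen, held 5.74, 6.19 and 5.24 against 8.04, 6.28 and 7.25. Neither overlapped between genotypes and neither passed (limma, adjusted p = 0.41 for Aimp1 and 0.58 for Aimp2). Aimp1 passed as lower with sample weights and without replicate 1 of both genotypes (limma, adjusted p = 0.048 and 0.039). Of 8 scaffold and synthetase-like genes, these 3 and Aarsd1 among them, none passed, and 7 had a negative difference (median -0.08). Aarsd1, which encodes a protein related to the editing part of the alanine enzyme, stood at 12.8 ± 0.48 FPKM in Cyp2e1-/- and 13.3 ± 2.88 in Cyp2e1+/+.

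**Figure D3:**
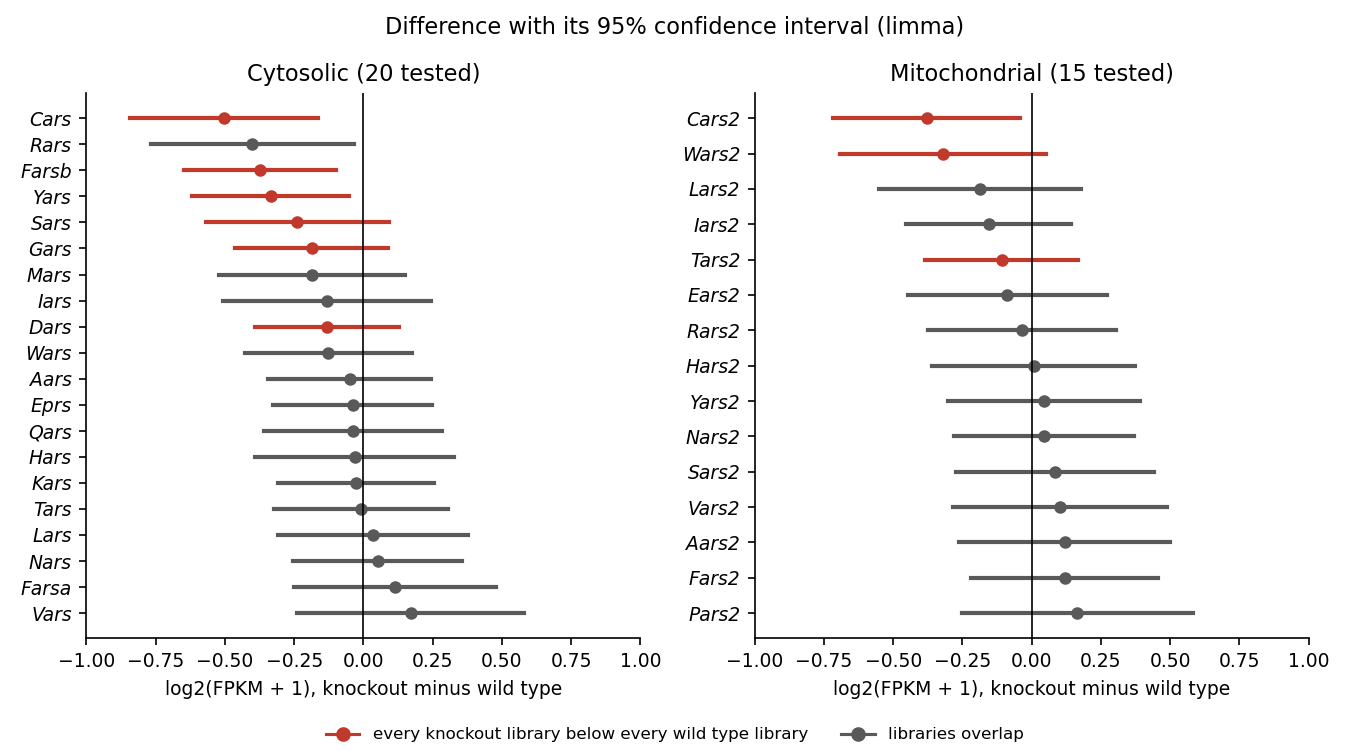
Difference between genotypes on the log2(FPKM + 1) scale with its 95% confidence interval from limma for the 20 cytosolic and 15 tested mitochondrial genes. All intervals lie inside 1 in either direction, and 5 of them, those of Cars, Rars, Farsb, Yars and Cars2, lie wholly below 0.

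Synthetases fall into class I and class II by the fold of their catalytic domain. The 10 cytosolic members of class I had a median difference of -0.13 and the 10 of class II one of -0.04, with 8 negative in each. Eprs, whose product carries both the glutamate and the proline enzyme, was counted in class I only. The difference between the classes was not tested. No member of either class passed.

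Mitochondrial synthetases ranged from 0.833 to 20.1 FPKM, and 9 of 16 had a mean under 5. Mars2 (0.82, 0.83 and 0.87 FPKM in Cyp2e1-/- and 0.98, 0.65 and 0.85 in Cyp2e1+/+) did not reach 1 FPKM in any library and was not tested. Fars2, the phenylalanine enzyme (gene 69955, chromosome 13, 36117428 to 36537595), was the most abundant. It held 20.6, 23.3 and 18.8 FPKM in Cyp2e1-/- and 22.9, 16.4 and 18.5 in Cyp2e1+/+, with overlap. Fars2 shares 10.7% of its annotated exon bases with other genes, among them 501 bases with Nrn1 on the opposite strand. Iars2 (gene 381314, chromosome 1, 185286642 to 185329419), the isoleucine enzyme, held 14.9, 14.0 and 14.8 FPKM against 14.2, 18.4 and 16.8. Of its annotated exon bases 24.2% are shared with other genes, mostly Rab3gap2 on the opposite strand.

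Next to Cars2, the tryptophan enzyme Wars2 (gene 70560, chromosome 3, 99140107 to 99221230) had the largest difference in this group. It held 1.01, 0.88 and 0.95 FPKM in Cyp2e1-/- and 1.10, 1.88 and 1.37 in Cyp2e1+/+. The groups did not overlap, the difference was -0.32 (SE 0.17; limma, adjusted p = 0.58), and the gene met the filter through its 3 wild type libraries and knockout replicate 1. Tars2, the threonine enzyme, held 8.64, 8.95 and 8.49 FPKM in Cyp2e1-/- and 9.64, 9.11 and 9.61 in Cyp2e1+/+, without overlap and with a difference of -0.11. Lars2 held 1.46, 2.07 and 2.08 FPKM against 1.98, 2.63 and 2.17, and Pars2 held 1.02, 1.51 and 1.93 against 1.09, 0.98 and 1.55. Both overlapped, with differences of -0.19 (Lars2) and 0.16 (Pars2).

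The other 8 mitochondrial genes overlapped between genotypes, with differences from -0.09 (Ears2) to 0.12 (Aars2). Hars2 stood at 7.68 FPKM in each genotype (7.68 ± 0.99 in Cyp2e1-/- and 7.68 ± 1.504 in Cyp2e1+/+). Hars2 lies beside Hars in the genome, and the annotated exons of the pair share 195 bases on opposite strands. Yars2 stood at 9.23 ± 0.42 FPKM in Cyp2e1-/- and 9.02 ± 1.85 in Cyp2e1+/+, Rars2 at 5.41 ± 0.30 and 5.61 ± 0.92, and Aars2 at 4.47 ± 0.998 and 3.99 ± 0.34. Nars2 stood at 4.17 ± 0.12 FPKM in Cyp2e1-/- and 4.03 ± 0.55 in Cyp2e1+/+, Sars2 at 3.55 ± 0.38 and 3.31 ± 0.57, Vars2 at 2.75 ± 0.34 and 2.52 ± 0.66, and Ears2 at 1.82 ± 0.39 and 1.98 ± 0.13.

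**Figure D4:**
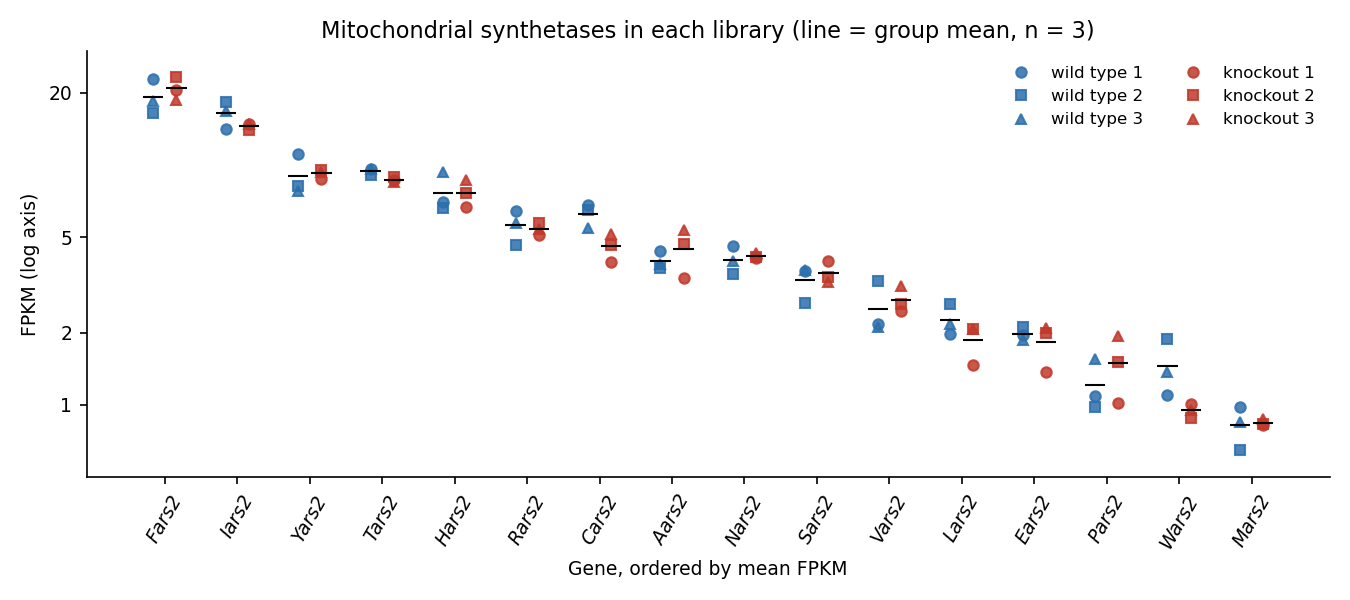
FPKM of the 16 mitochondrial synthetase genes in each library on a log axis, drawn as for the cytosolic genes (n = 3 per genotype). Fars2 and Iars2 lead, Mars2 is under 1 FPKM in every library, and genotypes do not overlap at Cars2, Tars2 and Wars2.

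Ratios of the cytosolic to the mitochondrial gene for the same amino acid overlapped between genotypes in most cases. Of the 18 ratios compared, which include Farsb to Farsa and 17 of a cytosolic to a mitochondrial gene, 3 of the latter did not overlap between genotypes. Yars to Yars2 was 0.886, 0.862 and 0.822 in Cyp2e1-/- and 0.921, 1.34 and 1.23 in Cyp2e1+/+. Wars to Wars2 was 4.86, 5.35 and 5.13 in Cyp2e1-/- and 4.45, 2.97 and 4.12 in Cyp2e1+/+. Farsb to Fars2 was 0.574, 0.581 and 0.628 in Cyp2e1-/- and 0.710, 1.01 and 0.869 in Cyp2e1+/+. Each gave p = 0.10 in the exact permutation test (two-sided), the smallest possible here, and 0.45 after Benjamini-Hochberg adjustment over the 18.

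ATF4 acts through the C/EBP-ATF response element, whose core was searched as TGATGNAA on both strands of RefSeq promoter windows (GRCm38.p6, 250 bases before to 50 after the annotated start). Windows were given for 13 cytosolic and 14 mitochondrial genes, and for 8037 tested genes. The core occurred in 5 of the 13 cytosolic genes (Aars, Gars, Iars, Tars and Yars), in none of the 14 mitochondrial genes, and in 2.70% of the tested genes. All 5 belong to the 12 cytosolic genes listed as ATF4 targets, of which 8 had a window. The asparagine synthetase gene Asns, a well-known ATF4 target, holds it too. A match of each gene is shown with the bases around it, because these are the members that hold the searched core, as Asns does. The sequences run 5′ to 3′ on the gene's strand, and capitals mark the core. The starts are those of the promoter table, which for Aars and Yars lie inside the span of the gene.
Aars (chr8:111033840-111033869, plus strand, 9 bases after the start): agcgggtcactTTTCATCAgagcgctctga
Asns (chr6:7693214-7693243, minus strand, 23 bases before the start): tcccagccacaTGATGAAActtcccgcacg
Gars (chr6:55037960-55037989, plus strand, 30 bases before the start): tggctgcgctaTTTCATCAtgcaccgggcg
Iars (chr13:49682126-49682155, plus strand, 7 bases after the start): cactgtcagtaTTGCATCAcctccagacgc
Tars (chr15:11399655-11399684, minus strand, 15 bases before the start): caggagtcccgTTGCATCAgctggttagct
Yars (chr4:129189895-129189924, plus strand, 3 bases after the start): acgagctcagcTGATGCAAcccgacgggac
Read on the other strand, the matches shown for Gars and Aars have the same 8 letters as Asns, and those shown for Iars and Tars have the same 8 letters as Yars. Aars holds a second match, not shown, 112 bases before the start, which read that way has the letters of Yars. A match describes these letters and is not a measured binding site.

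Asns fell in Cyp2e1-/- while the 5 synthetases with the core did not pass. Asns held 0.45, 0.74 and 0.75 FPKM in Cyp2e1-/- and 15.3, 7.33 and 9.50 in Cyp2e1+/+, far apart in every library. Its difference was -2.78 (SE 0.23, 95% confidence interval -3.30 to -2.26; limma, adjusted p = 3.2e-04). The differences of the synthetases with the core were -0.33 for Yars, -0.19 for Gars, -0.13 for Iars, -0.05 for Aars and -0.01 for Tars. Their confidence intervals reached no lower than -0.62, the bound for Yars, and so did not meet that of Asns. Nars, which uses the asparagine that the Asns product makes, had a difference of 0.05.

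**Figure D5:**
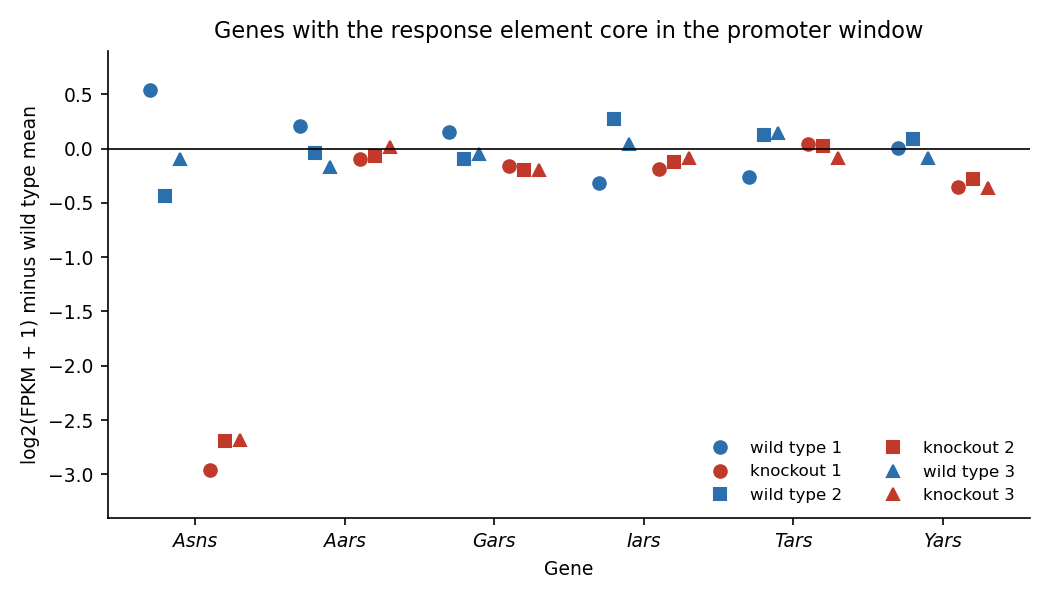
Value of each library on the log2(FPKM + 1) scale minus the wild type mean of that gene, for Asns and the 5 synthetase genes with the response element core. The knockout points of Asns lie around the mean difference of -2.78, while those of the synthetases lie within 0.5 of the wild type mean.

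Atf4 itself held 34.6, 34.1 and 31.6 FPKM in Cyp2e1-/- and 36.8, 35.0 and 35.0 in Cyp2e1+/+, without overlap but with a difference of -0.09 (limma, adjusted p = 0.88). Of the 12 cytosolic synthetases listed as ATF4 targets 10 had a negative difference (median -0.13), and none passed. Of 32 genes listed for the ATF4 amino acid response 21 were tested. Asns and Cth fell, none rose and 19 did not pass (median -0.07). Among the 21, 13 had a negative and 8 a positive difference. Every knockout library lay below every wild type library in 7 of them and above in 1, against 10.0% and 5.32% of all tested genes. Cth encodes cystathionine gamma-lyase, which makes cysteine, the amino acid of Cars and Cars2. It held 54.2, 58.0 and 54.3 FPKM in Cyp2e1-/- and 129, 83.4 and 94.8 in Cyp2e1+/+, with a difference of -0.85 (SE 0.16; limma, adjusted p = 0.048). With the replicate number as a block the adjusted p of Cth was 0.0923 (limma). Leaving out 1 library also ended the call for knockout replicates 2 and 3 (limma, adjusted p = 0.19 and 0.17) and wild type replicates 2 and 3 (0.0567 and 0.16). The stress factor gene Ddit3, named after its values were seen and whose end overlaps Mars by 68 exon bases on the opposite strand, stood at 2.41 ± 0.90 FPKM in Cyp2e1-/- and 4.41 ± 0.94 in Cyp2e1+/+, and did not pass (limma, adjusted p = 0.28). It passed with sample weights and without replicate 1 of both genotypes (limma, adjusted p = 0.022 and 0.034). Gdf15, a stress-induced cytokine gene also named after its values were seen, held 1.75, 1.6 and 1.73 FPKM against 2.94, 6.12 and 5.61, without overlap. Its difference of -1.08 did not pass (limma, adjusted p = 0.067), but did with sample weights, without replicate 1 of both genotypes and without wild type replicate 1 (limma, adjusted p = 2.8e-04, 7.3e-04 and 0.0051). Gpt2, likewise named after its values were seen, went the other way. It held 116, 121.5 and 123 FPKM in Cyp2e1-/- and 99.6, 88.1 and 79.6 in Cyp2e1+/+, without overlap. The difference of Gpt2 was 0.43 and did not pass (limma, adjusted p = 0.20).

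Other lists of the translation apparatus, on eIF2, elongation, mitochondrial translation and tRNA maturation, gave no calls. None of 15 genes of eIF2 and its kinases and phosphatases passed (median -0.07), and the most abundant, Eif2s2 (eIF2 beta subunit) and Eif2s3x (gamma subunit), stood at 25.4 ± 2.55 and 22.9 ± 1.02 FPKM in Cyp2e1-/- against 33.1 ± 2.36 and 26.3 ± 4.87. Eif2s2 passed as lower with sample weights and without replicate 1 of both genotypes (limma, adjusted p = 0.019 and 0.029). None of 10 genes of cytosolic elongation and release passed (median -0.07). Eef1a1, which delivers charged tRNA to the ribosome, stood at 2239 ± 140 FPKM in Cyp2e1-/- and 2403 ± 48.3 in Cyp2e1+/+, and Eef2 at 458 ± 87.7 and 429.9 ± 27.4. None of 13 mitochondrial translation factors passed (median -0.09), with Tufm at 53.1 ± 5.92 and 48.6 ± 4.52 FPKM and Gfm1 at 33.0 ± 2.39 and 36.2 ± 5.05. None of 20 tested genes of tRNA maturation passed (median -0.07). Among these Hsd17b10, a subunit of mitochondrial RNase P, stood at 181 ± 41.8 and 177 ± 45.0 FPKM, and Pop5, a subunit of nuclear RNase P, at 25.3 ± 1.64 and 22.8 ± 4.57. Pop5 passed as higher without replicate 1 of both genotypes (limma, adjusted p = 0.044).

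Summed over the 20 cytosolic genes, the level was 264, 287 and 274 FPKM in knockout libraries 1 to 3 and 298, 300.0 and 293 in Cyp2e1+/+, without overlap. The 16 mitochondrial genes summed to 88.3, 96.0 and 94.7 FPKM in Cyp2e1-/- and 99.97, 91.2 and 94.7 in Cyp2e1+/+, with overlap. The median deviation of the cytosolic genes from their mean over all libraries was -0.12, -0.03 and -0.07 in Cyp2e1-/- and 0.08, 0.05 and 0.08 in Cyp2e1+/+ (log2 scale). Over all tested genes it was -0.10, 0.02 and 0.05 in Cyp2e1-/- and -0.02, 0.04 and 0.03 in Cyp2e1+/+. Set against all genes, the cytosolic level was -0.02, -0.05 and -0.12 in Cyp2e1-/- and 0.10, 0.01 and 0.05 in Cyp2e1+/+. Knockout replicate 1, low in the first account, was then the nearest of the 3 to wild type.

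Cyp2e1 stood at 254, 247 and 271 FPKM in Cyp2e1-/- libraries and 7427, 5942 and 6071 in Cyp2e1+/+, so that 0.0397 of the wild type mean remained, and the labels do not say which exons the deletion removes. The libraries summed to 562590 to 624264 FPKM. Steps among low values of short transcripts gave an estimated depth of 9.34 to 9.86 M fragments, with knockout replicate 1 deeper at 12.2 M, so genes near 1 FPKM rest on few fragments. Of 7 hepatocyte markers none passed and 6 had a positive difference (median 0.26), the most abundant being Alb (30269 ± 3205 FPKM in Cyp2e1-/- and 26283 ± 2215 in Cyp2e1+/+) and Apoa1 (7468 ± 768 and 6260 ± 959). Cps1 and Glul, named after their values were seen, lay above wild type in every knockout library, with differences of 0.56 and 0.33. Over all tested genes 5.32% showed that pattern. Ttr, the marker with a negative difference (-0.17), stood at 4455 ± 164 FPKM in Cyp2e1-/- and 5036 ± 778 in Cyp2e1+/+. Of 7 tested macrophage and leukocyte markers all had a negative difference and Lyz2 fell, from 31.9 ± 1.27 to 17.3 ± 3.31 FPKM (limma, adjusted p = 0.038, or 0.082 with the replicate number as a block). Leaving out a single library other than knockout replicate 1 also ended the call of Lyz2 (limma, adjusted p = 0.059 to 0.17). The 9 markers in the table summed to between 49.5 and 87.5 FPKM in Cyp2e1-/-, against 102 to 106 in Cyp2e1+/+, with Cd3e at 0 in 2 libraries. In bulk liver fewer cells of a type and less RNA per cell cannot be told apart, and the part of these cells in the synthetase values was not tested. Of 8 tested endothelial and stellate markers none passed (Dcn 62.97 ± 1.04 FPKM in Cyp2e1-/- and 73.8 ± 8.69 in Cyp2e1+/+, Stab2 12.5 ± 1.15 and 13.8 ± 3.42). The cholangiocyte list had 1 tested gene, Spp1 (18.3 ± 1.35 and 27.0 ± 4.44 FPKM), and the pancreatic list 1, Cela1 (27.8 ± 6.05 and 34.8 ± 9.44), and neither passed. Of the other acinar genes in the table, Pnlip and Amy2a5 were at or under 0.07 FPKM, and Cela2a stood at 0.42 to 1.23 FPKM. Of 3 tested red cell markers Alas2 fell, from 47.9 ± 3.30 to 9.43 ± 0.86 FPKM (limma, adjusted p = 2.0e-05), while Hba-a1 and Hba-a2, the globin genes tested, did not pass.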

How the data were processed

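Per the labels' protocols, total RNA of homogenized liver was purified with a Qiagen miRNeasy kit and made into Illumina TruSeq libraries. The submitters' processing notes name HISAT and mm10, without versions, and no label names the program or annotation behind the values. The authors deposited FPKM per gene, per the file headers, so no count model was used.

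The fit took the 9968 of 15960 genes that reached 1 FPKM in 3 or more of the 6 libraries. Values of log2(FPKM + 1) were compared between genotypes by limma 3.58.1 under R 4.3.3, with a variance trend, and p-values were adjusted over all of them by Benjamini-Hochberg. Members and gene lists were chosen with earlier results of these data known, so lists are described by counts and medians. Per-library values are given for the members with the largest differences or highest levels and those without overlap, and for other lists for genes past the threshold or the most abundant.

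Replicate numbers come from the titles. Same-numbered libraries deviated together from their group means (correlation 0.30, 0.20 and 0.16 over tested genes), though knockout 3 also did so with wild type 2 (0.21), so a replicate block was tried. Other alternatives were pseudocounts of 0.1 and 0.5, no filter or a mean of at least 5 FPKM, median ratio scaling, quantile normalization, sample weights, no variance trend, and leaving out libraries. Positions are from RefSeq (GRCm38.p6) by gene identifier, exon overlaps from GENCODE M21. Depth was estimated from steps in values of 232 to 263 low entries per library, with 100 bases taken off each transcript length. Of these values 69.6% to 72.6% lay within 0.15 of a whole fragment, where an unfitted depth would give 30%. Both the depth and the 100 bases were fitted to the same values, so the 30% is not the chance level of this fit. A few items of the gene lists and promoter windows are not reported here.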

Additional observations from a re-analysis of the deposited data

How the results depend on the processing

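The genes called over the whole table numbered 76, and 32 without the filter, 30 with a mean of at least 5 FPKM, 1151 with sample weights and 1183 without replicate 1 of both genotypes. Leaving out 1 library gave 29 (without knockout replicate 2) to 211 (without knockout replicate 1). With the replicate block 72 genes passed and no synthetase did, and among the other genes named Cth and Lyz2 lost their calls. Cth also lost its call with pseudocounts of 0.1 and 0.5 (limma, adjusted p = 0.054 and 0.051), and both lost theirs without the filter (0.15 for Cth and 0.12 for Lyz2), with a mean of at least 5 FPKM (0.062 and 0.053), with median ratio scaling (0.089 and 0.074) and without the variance trend (0.080 and 0.058). With quantile normalization Lyz2 lost its call (0.069). Spp1 gained a call with sample weights and without replicate 1 of both genotypes (0.012 and 0.018), and Apoa1 in the latter (0.0098). No mitochondrial synthetase passed under any of the 16 alternatives. Of the cytosolic ones 2 passed with sample weights (Cars and Rars) and 1 without replicate 1 of both genotypes (Rars), and 0 under the others. The cytosolic median of -0.09 was -0.053 with quantile normalization and -0.135 to -0.069 with 1 library left out. The mitochondrial median of 0.01 was 0.037 with quantile normalization and -0.055 to 0.034 with 1 library left out. The cause of these shifts was not tested.

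Some differences that did not pass turned sign. With median ratio scaling Kars was 0.0029, Tars 0.023 and Aarsd1 0.0019. With quantile normalization Eprs was 0.0079, Hars 0.0090, Kars 0.0066, Qars 2.0e-04, Tars 0.039 and Aarsd1 0.017. With sample weights Aars was 0.030, Hars 0.039, Kars 0.064, Qars 0.032, Rars2 0.078, Aarsd1 0.097 and Cela1 0.022. Without replicate 1 of both genotypes Aars was 0.080, Hars 0.091, Kars 0.020, Qars 0.013, Ears2 0.028, Rars2 0.087, Aarsd1 0.139 and Cela1 0.058. With 1 library left out, the ranges that crossed 0 were -0.134 to 0.055 for Aars, -0.109 to 0.023 for Eprs, -0.038 to 0.216 for Farsa, -0.137 to 0.119 for Hars, -0.290 to 0.0031 for Iars, -0.102 to 0.038 for Kars, -0.055 to 0.155 for Lars, -0.022 to 0.143 for Nars, -0.136 to 0.073 for Qars and -0.140 to 0.063 for Tars. In mitochondrial genes they were -0.159 to 0.032 for Ears2, -0.081 to 0.145 for Hars2, -0.032 to 0.126 for Nars2, -0.148 to 0.055 for Rars2, -0.031 to 0.144 for Sars2 and -0.044 to 0.191 for Yars2. In other genes they were -0.181 to 0.115 for Aarsd1, -0.026 to 0.243 for Eef2, -0.144 to 0.236 for Hsd17b10 and -0.259 to 0.063 for Stab2. With FPKM and no counts, the depth behind a value is an estimate, and with 3 libraries a genotype a typical 95% interval reached 0.34 to either side.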
